A study of Homo sapiens with 6 samples.

Results

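The sestrins SESN1, SESN2 and SESN3 and 7 further genes that carry the amino acid signal to mTORC1 (DEPDC5, NPRL2, NPRL3, RRAGC, RRAGD, TSC1 and RPTOR) were compared between SOX9 knockdown and control cells. Members were the probe sets that the deposited array table assigns to these 10 genes by symbol, with current names checked through the Entrez number, and there were 34 of them among 49293 probe sets that are not array controls, for 10 of 18574 genes. The cells were labelled HepG2, a human line established from a liver tumour. Control cells had received an empty virus (3 arrays), and knockdown cells a virus with a short hairpin RNA against SOX9, a transcription factor active in biliary and progenitor cells (3 arrays). The description field of the knockdown samples names the empty virus too, and the groups follow their titles, so the SOX9 signal is given before the members. All cells grew in DMEM with 10% fetal bovine serum. Per the labels' protocols 1 clone was built with each virus, so clone and hairpin cannot be told apart. Whether the 3 arrays of a group are separate cultures is not labelled, and p-values therefore cover the spread between these arrays alone, which may be technical.

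mTORC1 is the kinase complex that couples amino acid supply to protein synthesis and growth. When amino acids are present, a pair of Rag GTPases (RRAGA or RRAGB with RRAGC or RRAGD), anchored by the Ragulator complex, brings mTORC1 to the surface of the lysosome through its subunit RPTOR, where the GTPase RHEB switches it on. The GATOR1 complex (DEPDC5, NPRL2, NPRL3) switches off RRAGA and RRAGB, the GATOR2 complex opposes GATOR1, and sestrins bind and restrain GATOR2. Leucine releases SESN2 from GATOR2, which makes SESN2 a sensor of leucine. Sestrin genes are themselves under transcriptional control: SESN2 is induced by the amino acid response factor ATF4, and SESN1 and SESN3 are targets of the FOXO factors. The TSC complex, built on TSC1, inhibits RHEB.

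The values were log2 signals normalized by the authors with RMA. Array medians lay between 5.42 and 5.48, and correlations between arrays were 0.9919 to 0.9959 within groups and 0.9823 to 0.9919 between groups. SOX9 itself, on the probe set with its highest signal (11758216_s_at), read 8.15, 7.99 and 7.67 in control arrays 1 to 3 and 6.91, 7.08 and 6.90 in knockdown arrays, which left 51.0% of the control signal (limma adjusted p = 0.00294 over all probe sets). A second SOX9 set differed by -0.83 (limma adjusted p = 0.00470) and the third by -0.81 (limma adjusted p = 0.0716), with control 3 within the knockdown range on the third. Control array 3 lay nearer to the knockdown arrays than the other controls did in the GAPDH and spike-in measures of RNA handling. For GAPDH, the difference between the array's 3' and 5' control sets was 0.26 in control 3, against 0.04 and 0.03 in controls 1 and 2 and 0.24 to 0.42 in knockdown arrays. For actin the same difference was 2.56, 2.55 and 2.51 in controls 1 to 3 and 2.19 to 2.34 in knockdown arrays, without overlap and with control 3 beside the other controls. The poly-A spike-ins, RNAs added before labelling, read 6.36, 6.48 and 6.95 in controls 1 to 3 and 6.79 to 7.12 in knockdown arrays. Control 3 was also the control nearest to the knockdown mean on 19 of the 34 member probe sets, 55.9%, and on 47.7% of all probe sets; the part of RNA handling in the results was not tested. Of 16 hepatocyte markers, 14 had a mean log2 signal under 5, among them albumin (ALB, 3.14 ± 0.44 in control, SD, n = 3) and alpha-fetoprotein (AFP, 2.70 ± 0.14), which HepG2 cells are known to express, so these defining markers go against the label. The array means of this list were 3.61 to 3.88 in control and 3.76 to 3.94 in knockdown arrays. Those of the leukocyte list were 3.95 to 4.17 and 4.15 to 4.35, of the endothelial list 4.64 to 5.00 and 4.69 to 4.92, and of the fibroblast list 4.16 to 4.25 and 4.24 to 4.34. Over all genes 3 of these markers were called, all higher in the knockdown: RBP4 of the hepatocyte list by 1.26 (limma adjusted p = 6.89e-04), CD68 of the leukocyte list by 0.62 (limma adjusted p = 0.00820) and DCN of the fibroblast list by 0.59 (limma adjusted p = 0.00759); their part in the results was not tested.

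The 3 sestrins moved in different directions, and the promoters of these genes are shown because they carried the changes. The sequences are those of RefSeq, assembly GRCh38.p14, each from 250 bases before to 50 bases after a transcript start and written in the direction of the gene, in lower case with motif matches in capitals. SESN2 starts on the plus strand in the window chr1:28259268-28259567, and SESN3 on the minus strand in chr11:95232426-95232725. SESN1 has 3 starts on the minus strand of chromosome 6. Of its windows chr6:109009503-109009802 is printed because it holds a match before the start. The SESN1 window farthest upstream, chr6:109094797-109095096, held 0 matches to the motifs searched below. Which start gives the transcripts read by the SESN1 probe sets was not tested.
SESN2 promoter: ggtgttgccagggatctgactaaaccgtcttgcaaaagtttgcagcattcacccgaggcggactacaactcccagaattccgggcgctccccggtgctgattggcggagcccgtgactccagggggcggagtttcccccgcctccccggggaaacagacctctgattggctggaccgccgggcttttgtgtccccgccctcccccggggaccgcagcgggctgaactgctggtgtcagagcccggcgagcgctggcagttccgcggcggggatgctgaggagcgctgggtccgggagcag
SESN3 promoter: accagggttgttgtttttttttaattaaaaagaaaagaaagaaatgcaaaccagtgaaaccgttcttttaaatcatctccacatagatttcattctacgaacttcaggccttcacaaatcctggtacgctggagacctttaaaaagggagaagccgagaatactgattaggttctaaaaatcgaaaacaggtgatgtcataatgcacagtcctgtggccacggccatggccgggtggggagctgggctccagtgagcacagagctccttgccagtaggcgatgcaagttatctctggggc
SESN1 promoter: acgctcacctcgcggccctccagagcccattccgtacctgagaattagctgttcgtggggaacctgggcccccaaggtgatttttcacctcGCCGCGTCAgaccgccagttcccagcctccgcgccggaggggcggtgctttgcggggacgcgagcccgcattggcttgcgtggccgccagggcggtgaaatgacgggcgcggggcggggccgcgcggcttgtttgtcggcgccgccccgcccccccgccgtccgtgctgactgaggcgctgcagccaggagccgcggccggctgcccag
The windows of SESN2, SESN3 and this SESN1 start held 67.0%, 45.0% and 72.3% G and C, against a median of 58.7% over all 35116 promoter windows of the table.

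Each window was searched on both strands for 4 motifs. TGATGNAAN is the C/EBP-ATF response element bound by ATF4, and TGTTTAC a forkhead site of the kind FOXO factors bind. CACGTG is the E-box bound by factors such as TFEB. TGANNNNGC is a loose pattern, with 4 bases left free, for the core of the antioxidant response element bound by NRF2. Of 13 windows of 9 member genes, 0 held the C/EBP-ATF letters and 0 held the forkhead letters, which occurred in 3.61% and 3.42% of all windows. With shares this low, 0 of 13 says little. The windows of DEPDC5 also overlap and SESN1 has several, so the 13 are not independent. SESN2 and SESN3 held none of the 4 motifs in the bases shown. The capitals in the SESN1 window are GCCGCGTCA, a match to the antioxidant pattern on the other strand at position -159 from the start. This loose pattern was found in 5 of the 13 windows and in 41.8% of all windows. An E-box stood in the windows of RRAGC, at position -112 and overlapping an antioxidant match, and of NPRL3, at position 25. E-boxes occurred in 7.26% of all windows. These matches are letters in a short window and do not show binding.

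Among the 34 member probe sets 6 changed at a limma adjusted p under 0.05 over all probe sets, 17.6%, against 12.6% of all 49293 probe sets. Of the 6, 2 were higher (SESN1 and RPTOR, against 5.94% of all probe sets) and 4 were lower (SESN2 and SESN3 on 2 probe sets each, against 6.68%). Sestrins accounted for 5 of the 6, from 6 sestrin probe sets, and the other 7 genes for 1 of 28. The control and knockdown arrays did not overlap on 10 member probe sets, 5 in each direction, and on 29.6% of all probe sets. The median difference, knockdown minus control, was 0.07 on the log2 scale over the members and 0.01 over all probe sets. A mean signal under 5, where RMA compresses differences, was found for 11 of the 34.

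**Figure D1:**
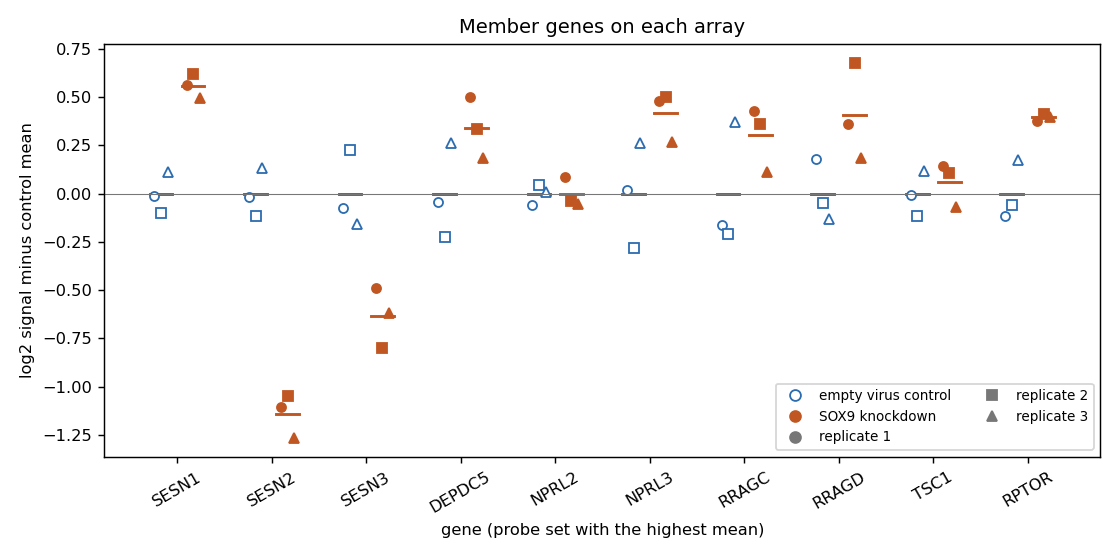
Log2 signal of each member gene on each of the 6 arrays, minus the mean of the 3 control arrays, for the probe set with the highest mean; open symbols are control arrays, filled symbols knockdown arrays, shapes the replicate numbers and bars the group means. SESN2 fell by 1.14 and SESN3 by 0.63, and SESN1 and RPTOR lay above all controls in every knockdown array. NPRL3 and RRAGD did so too, by a narrow margin and without being called, and the arrays of DEPDC5, NPRL2, RRAGC and TSC1 overlapped.

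SESN2, the leucine sensor, was lower in all 3 knockdown arrays. Probe set 11718325_at read 8.09, 7.99 and 8.24 in control and 7.00, 7.06 and 6.84 in the knockdown. Every control thus lay above every knockdown array. The group values of 8.10 ± 0.13 and 6.96 ± 0.11 (SD, n = 3) gave a log2 difference of -1.14 (SE 0.11, limma adjusted p = 6.10e-04 over all probe sets), a signal 2.21-fold lower and 45.3% of control. The second probe set of SESN2, 11718324_s_at, read 7.46, 7.32 and 7.61 in control and 6.50, 6.29 and 6.26 in the knockdown, again without overlap, and differed by -1.11 (SE 0.12, limma adjusted p = 8.90e-04). In the table both align to the plus strand of chr1:28585985-28609002, band p35.3; no source used here names the build of the table's coordinates. Because RNA was taken from whole cultures, fewer cells that express a gene and less of its RNA per cell cannot be told apart, here and below.

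SESN3, also known as a FOXO target, was lower too, on probe sets of low signal. Probe set 11752913_a_at read 4.40, 4.70 and 4.38 in control and 3.53, 3.25 and 3.51 in the knockdown, a difference of -1.06 (SE 0.13, limma adjusted p = 0.00158). Probe set 11731901_a_at read 4.64, 4.94 and 4.55 in control and 4.22, 3.91 and 4.09 in the knockdown, a difference of -0.63 (SE 0.13, limma adjusted p = 0.0150). Neither set overlapped between groups. Without knockdown 2, the lowest array on both, the adjusted p of 11731901_a_at was 0.0566, and with the spike-in level in the fit it was 0.141 (difference -0.61). All group means of SESN3 were under 5, so the sizes of its falls may be compressed. Probe set 11731901_a_at aligns to the minus strand of chr11:94906127-94964351, band q21.

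SESN1, a FOXO target, went the other way. On probe set 11719063_a_at it read 6.85, 6.77 and 6.98 in control and 7.43, 7.49 and 7.36 in the knockdown. Every knockdown array lay above every control, and the rise was 0.56 (SE 0.10, limma adjusted p = 0.00828), or 1.47-fold. Its other probe set, 11719062_a_at, read 5.42, 5.66 and 5.10 in control and 5.62, 5.67 and 5.97 in the knockdown. There the groups overlapped, and the difference of 0.35 (SE 0.16) did not pass (limma adjusted p = 0.188). With the spike-in level in the fit the difference of 11719063_a_at was 0.49 and did not pass (limma adjusted p = 0.103). SESN1 aligns to the minus strand of chr6:109307644-109416093, band q21.

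**Figure D2:**
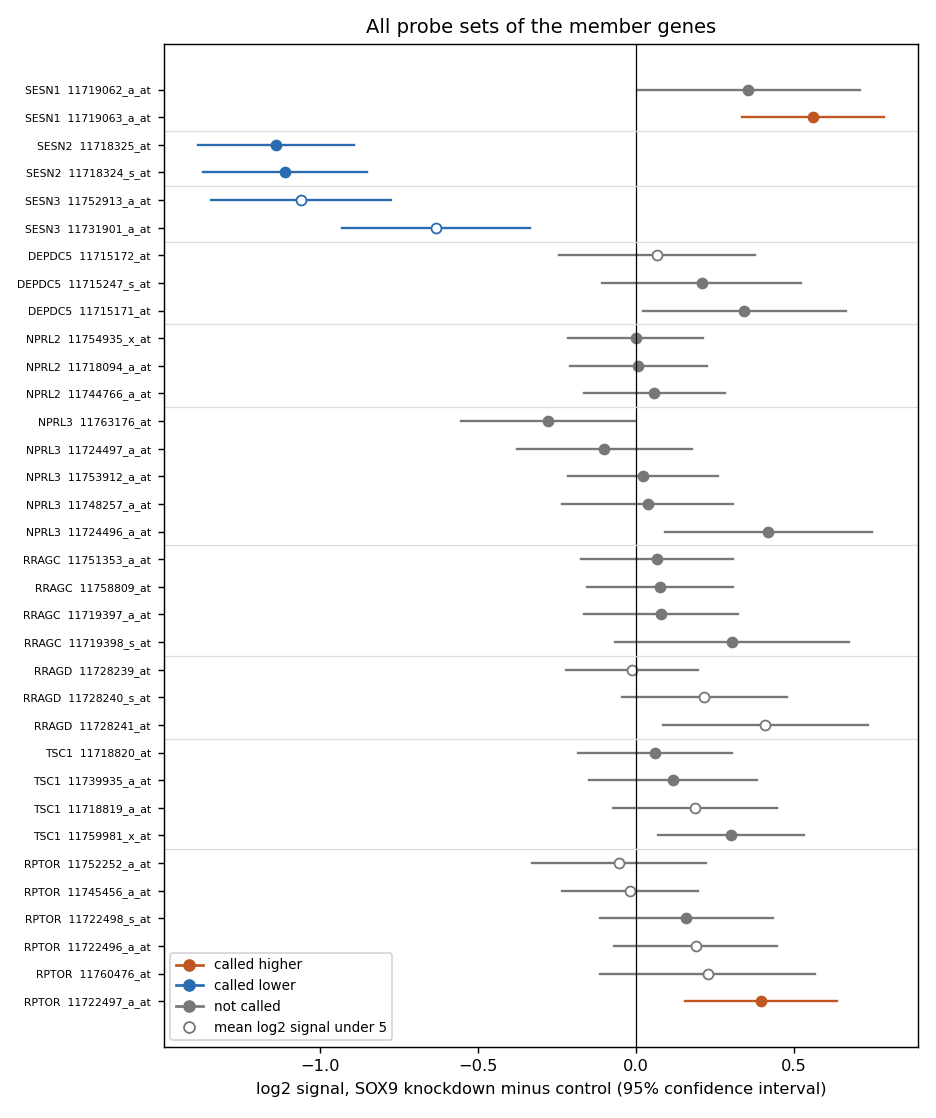
Log2 difference between SOX9 knockdown and control for all 34 member probe sets, with 95% confidence intervals of the limma fit; orange marks sets called higher, blue sets called lower, grey sets not called, and open circles a mean log2 signal under 5. The 4 sets of SESN2 and SESN3 lie from -1.14 to -0.63, and those of the other 7 genes between -0.28 and 0.42.

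The GATOR1 subunits, which act downstream of sestrins, did not pass the test on any of their 11 probe sets. Of these 3 had an unadjusted p under 0.05, and they did not share a direction. A DEPDC5 set (0.34) and an NPRL3 set (0.42) were higher and another NPRL3 set (-0.28) lower. The share of all probe sets with such a p is not given here. NPRL2 differed least: its 3 probe sets had differences of -0.0021 to 0.06, and the interval of the set with the highest signal, 11754935_x_at, was -0.22 to 0.21. On this set control arrays read 7.85, 7.95 and 7.92, and knockdown arrays 7.99, 7.87 and 7.86. DEPDC5, the largest subunit, read 5.66, 5.48 and 5.97 in control and 6.21, 6.04 and 5.89 in the knockdown on 11715171_at. Control 3 lay within the knockdown range there, and the difference was 0.34 (SE 0.14, limma adjusted p = 0.164). Without control 3 it was 0.47, with a limma adjusted p of 0.0376, and with the spike-in level in the fit it was 0.11 (limma adjusted p = 0.815). Its other sets differed by 0.21 (limma adjusted p = 0.415) and, at a signal under 5, by 0.07 (limma adjusted p = 0.838). DEPDC5 aligns to the plus strand of chr22:32150068-32303000, band q12.2, and NPRL2 to the minus strand of chromosome 3, band p21.31.

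NPRL3 gave different readings on its 5 probe sets. The brightest, 11724496_a_at, read 7.86, 7.56 and 8.11 in control and 8.33, 8.35 and 8.11 in the knockdown, with a difference of 0.42 (SE 0.15, limma adjusted p = 0.0970); the highest control and the lowest knockdown array almost met. Without control 3 the difference was 0.55 (limma adjusted p = 0.0242), and with the spike-in level in the fit 0.24 (limma adjusted p = 0.593). Probe set 11763176_at, in contrast, read 6.50, 6.43 and 6.68 in control and 6.29, 6.42 and 6.06 in the knockdown, a difference of -0.28 that did not pass (limma adjusted p = 0.186). The other 3 sets lay between -0.10 and 0.04. On each array the signal of the first set minus that of the second was 1.36, 1.13 and 1.43 in control and 2.04, 1.93 and 2.05 in knockdown, with no overlap. This contrast of 0.70 sets the NPRL3 probe set of highest difference against that of lowest difference, and was chosen after its values were seen. Its exact permutation p of 0.1, two-sided, is the smallest that 3 against 3 arrays can give. That p follows from the lack of overlap in a contrast picked for its size, so the test cannot judge it. The table aligns the first set to chr16:135733-188669 and the second to chr16:134219-188259, both on the minus strand, and does not say which exons their probes cover.

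The Rag GTPases RRAGC and RRAGD, which form a pair with RRAGA or RRAGB and hold RPTOR, did not pass either. RRAGC read 9.25, 9.21 and 9.78 in control and 9.84, 9.78 and 9.53 in the knockdown on 11719398_s_at, a set whose name allows probes that match further transcripts. Control 3 lay with the knockdown arrays, and the difference of 0.30 (SE 0.16, limma adjusted p = 0.294) became 0.49 without control 3 (limma adjusted p = 0.0303) and 0.0055 with the spike-in level in the fit (limma adjusted p = 0.993). Its other 3 probe sets differed by 0.07 to 0.08. RRAGD was near the bottom of the signal range: its 3 probe sets exceeded 2.09% to 13.7% of all probe sets. The brightest, 11728241_at, read 3.01, 2.78 and 2.70 in control and 3.19, 3.51 and 3.01 in the knockdown, and its difference of 0.41 (SE 0.14) did not pass (limma adjusted p = 0.102). The others differed by 0.22 (limma adjusted p = 0.288) and -0.01 (limma adjusted p = 0.960). At such signals a difference in RRAGD may go undetected. RRAGC aligns to the minus strand of chr1:39303869-39325491, band p34.3, and RRAGD to that of chr6:90074040-90122189, band q15.

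TSC1, the scaffold of the complex that inhibits RHEB, read 8.35, 8.24 and 8.48 in control and 8.50, 8.46 and 8.29 in the knockdown on 11718820_at. The groups overlapped, and the interval of the difference was -0.18 to 0.30. Another of its 4 probe sets, 11759981_x_at, read 5.95, 5.98 and 6.16 in control and 6.28, 6.41 and 6.30 in the knockdown, without overlap. The other TSC1 sets are listed as 90.58% or 93.63% aligned, this set as 68.04%, and its name allows probes that match further transcripts. Its difference of 0.30 had a limma adjusted p of 0.0916 over the 6 arrays and 0.0428 without control 3. The remaining sets differed by 0.12 and 0.19 and did not pass. TSC1 aligns to the minus strand of chr9:135766739-135820020, band q34.13.

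RPTOR, the mTORC1 subunit that docks on the Rag GTPases, was higher on 1 of 6 probe sets. This set, 11722497_a_at, read 5.36, 5.41 and 5.65 in control and 5.85, 5.88 and 5.87 in the knockdown. No control reached the knockdown arrays, and the rise was 0.40 (SE 0.11, limma adjusted p = 0.0408), or 1.32-fold. The call was lost without any of 5 of the 6 arrays, at adjusted p of 0.102 to 0.149, and with the spike-in covariate (0.27, limma adjusted p = 0.356), while without control 3 it passed at 0.0130. The other 5 sets of RPTOR differed by -0.05 to 0.23 and did not pass, and 4 of these 5 had a mean under 5. RPTOR aligns to the plus strand of chr17:78518618-78940168, band q25.3.

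**Figure D3:**
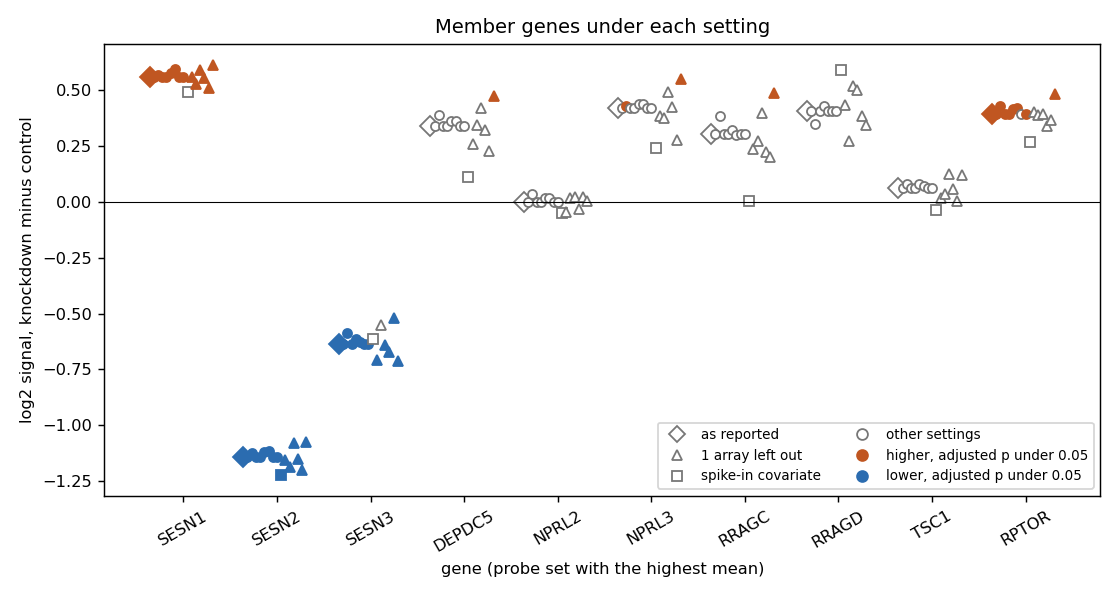
Log2 difference of each member gene (probe set with the highest mean) as reported and under each alternative setting; filled symbols have an adjusted p under 0.05, diamonds are the values as reported, triangles leave out 1 array and squares are fits with the spike-in level as a covariate. SESN2 stayed between -1.22 and -1.08 and was called under every setting drawn, while SESN1, SESN3, DEPDC5, NPRL3, RRAGC and RPTOR changed sides of the threshold.

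Other genes of the pathway were described with 1 probe set each, that of the highest mean, and adjusted p-values over all 18574 genes. Of 79 further genes measured in 13 lists, 6 were higher (7.59%, against 8.41% of all genes) and 23 were lower (29.1%, against 8.35%); over both directions 16.8% of all genes were called. The lists of transcription factors and carriers hold known members of the ATF4 response, whose fall in these data was known when the lists were chosen. Without them 63 genes remained, of which 6 were higher and 12 lower, 19.0%; these still include known ATF4 response genes such as TRIB3 and DDIT4, so the share is a description. The median difference over the 79 was 0.0056, against 0.03 over all genes. The calls of SEH1L, KPTN, KICS2, BMT2, FNIP2, RICTOR, MAPKAP1, ATG13, ATF4, FOXO1, SLC7A5 and SLC43A1, given below, were each lost in 5 to 10 of 16 alternative settings. No probe set of SEH1L, KICS2, ATG13 or SLC43A1 passed when adjusted over all probe sets. The reported set of MAPKAP1 did not pass there either (limma adjusted p = 0.0577), while 1 of its 9 sets did.

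**Figure D4:**
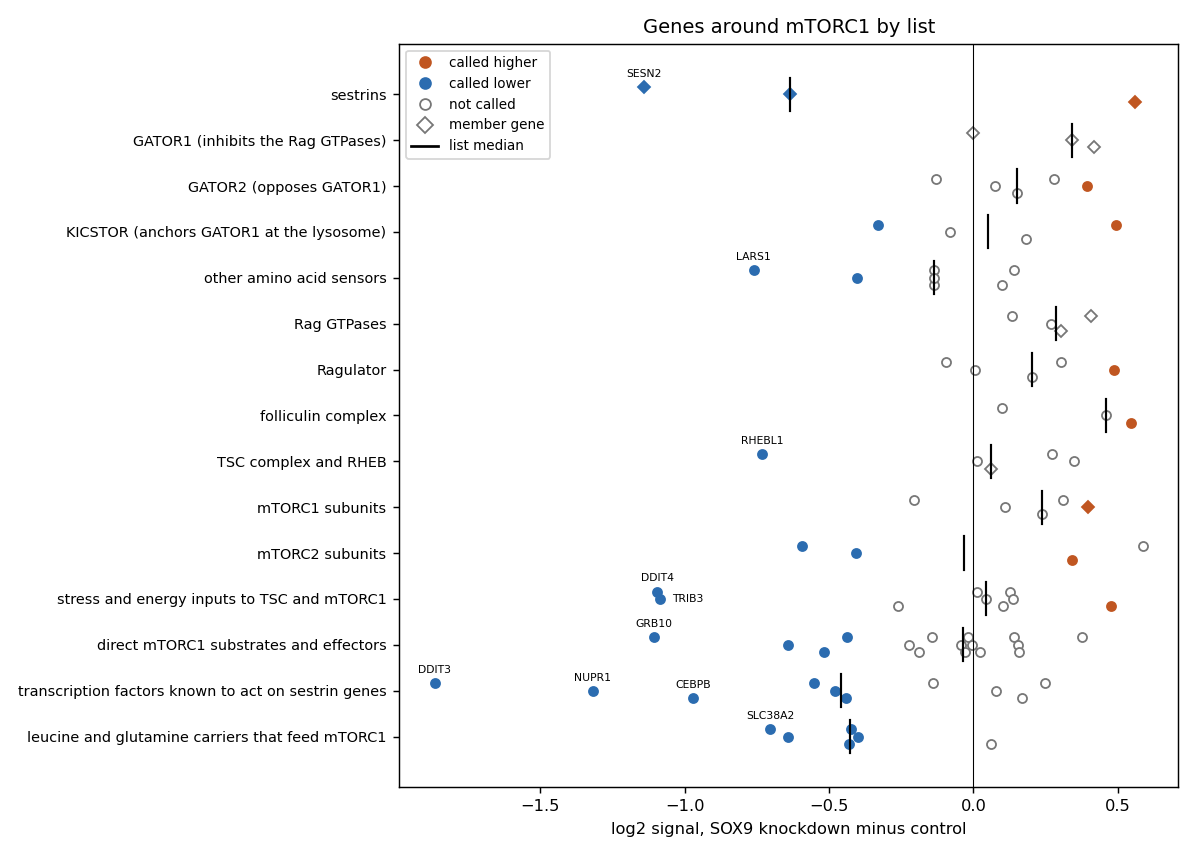
Log2 difference between SOX9 knockdown and control for 89 genes by list, 1 probe set each; filled orange and blue symbols are genes called higher and lower, open symbols genes not called, diamonds the member genes and black bars the list medians. Of the 89 genes 8 were called higher (8.99%, against 8.41% of all genes) and 25 lower (28.1%, against 8.35%). Lower calls were 6 of 10 transcription factors, 5 of 6 carriers, 2 of 4 mTORC2 subunits and 4 of 16 substrates and effectors. They also included 2 of 9 stress inputs, 2 of 7 other sensors and 2 of 3 sestrins. KICSTOR and the list of TSC and RHEB had 1 lower call each, of 4 and 5 genes.

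Upstream of the Rag GTPases the calls went both ways. Of 5 GATOR2 genes 1 was called, SEH1L, a subunit shared with the nuclear pore, which rose by 0.39 (limma adjusted p = 0.0388); WDR24 read 0.28 and did not pass. Of the 4 genes of KICSTOR, which anchors GATOR1 at the lysosome, KPTN rose by 0.49 (limma adjusted p = 0.0187) and KICS2 changed by -0.33 (limma adjusted p = 0.0386). Among 7 other sensors 2 were called: LARS1, the leucyl-tRNA synthetase, fell by 0.76 (control 10.48 ± 0.14, knockdown 9.72 ± 0.07, SD, n = 3, with a limma adjusted p of 0.00127), and BMT2, the sensor of S-adenosylmethionine, by 0.40, although another probe set of it read 0.12. The 3 probe sets of LARS1 ran from -0.76 to -0.29, and 2 of them were called lower over all probe sets. The arginine sensors CASTOR1 and SLC38A9 read -0.14 and 0.14 and did not pass.

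Around the lysosomal platform, 1 of 5 Ragulator genes rose, LAMTOR5 (0.49, limma adjusted p = 0.00933), and LAMTOR1 read 0.30 and did not pass. Of the 3 genes of the folliculin complex, which acts on RRAGC and RRAGD, FNIP2 rose by 0.55 (limma adjusted p = 0.0221), and FLCN read 0.46 and did not pass. Of 4 Rag GTPase genes 0 were called by limma in either direction, and 2, RRAGB (0.27) and RRAGD, had an unadjusted p under 0.05. In the list of TSC and RHEB, 1 of 5 fell, the RHEB relative RHEBL1, from 6.45 ± 0.05 to 5.71 ± 0.06 (SD, n = 3; limma adjusted p = 7.78e-04); RHEB itself read 0.01, with its 4 probe sets between -0.52 and 0.50, of which the highest passed over all probe sets (limma adjusted p = 0.0175), and TBC1D7, the third subunit of the TSC complex, 0.35 (limma adjusted p = 0.0534). RPTOR was the 1 of 5 mTORC1 genes that rose, while MTOR, the kinase, read 0.11 and AKT1S1, an inhibitory subunit, 0.31, neither passing. DEPTOR, another inhibitory subunit, read -0.20 and did not pass, but 1 of its 3 probe sets, all under a signal of 5, was lower over all probe sets (-0.73, limma adjusted p = 0.00726). Of 4 mTORC2 genes PRR5L and RICTOR fell by 0.59 and 0.41 and MAPKAP1 rose by 0.34; a second probe set of PRR5L read -1.58, and those of RICTOR -0.79 to -0.13. PRR5 read 0.59 and did not pass on its brightest probe set, but 4 of its 6 sets were higher over all probe sets.

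Among 9 stress and energy genes 2 fell, DDIT4 and TRIB3, and 1 rose. DDIT4, which acts through the TSC complex, read 11.45, 11.60 and 11.29 in control and 10.33, 10.24 and 10.48 in the knockdown, a fall of 1.09 or 2.14-fold (limma adjusted p = 3.16e-04). TRIB3, a pseudokinase that binds AKT, went from 9.77, 9.71 and 9.86 to 8.75, 8.76 and 8.56, a fall of 1.08 (limma adjusted p = 1.76e-04). The groups did not overlap on either gene. The AMPK subunit PRKAG2 was the 1 that rose (0.48, limma adjusted p = 0.0121). Its 4 probe sets ran from 0.01 to 0.48, and 1 of them was called higher over all probe sets. The call of PRKAG2 was lost in 3 of 16 alternative settings. DDIT4L, a relative of DDIT4, read 0.10, and PRKAA1 and PRKAA2, the catalytic subunits of AMPK, read -0.26 and 0.13, none of the 3 passing.

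Among 16 substrates and effectors of mTORC1, 4 were called, all of them lower. GRB10, an adaptor that mTORC1 stabilizes and that damps insulin signalling, read 9.40, 9.29 and 9.22 in control and 8.21, 8.23 and 8.15 in the knockdown (a fall of 1.11, limma adjusted p = 1.28e-04), although its other probe sets read -0.46 and -0.39. EIF4EBP1, the repressor of cap-dependent translation, fell by 0.64, and the autophagy genes ULK1 and ATG13, which mTORC1 inhibits, by 0.52 and 0.44. Like SEH1L, KICS2 and SLC43A1, ATG13 had no probe set that passed over all probe sets. The S6 kinases RPS6KB1 and RPS6KB2 read -0.14 and 0.38 and did not pass, and TFEB and TFE3, the lysosomal factors that mTORC1 keeps in the cytoplasm, read 0.16 and 0.14.

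Of 10 transcription factors known to act on sestrin genes, 6 were called, all of them lower, against 8.35% of all genes called lower. The list median was -0.46. This list and that of the carriers hold members of the ATF4 response, whose fall was known when the lists were chosen. DDIT3 differed by -1.87, NUPR1 by -1.32 and CEBPB by -0.97, and ATF4 itself by -0.44 (limma adjusted p = 0.0172). Among FOXO factors FOXO3 fell by 0.55 and FOXO1 by 0.48, while FOXO4 read -0.14 and did not pass. The 4 probe sets of FOXO1 ran from -0.81 to 0.12, with 2 called lower over all probe sets. Those of FOXO4 ran from -0.43 to 0.13, and 1 of 7 was called lower. NFE2L2, which encodes NRF2, read 0.17 and did not pass. Carriers that bring leucine and glutamine into the cell had 5 called of 6, all of them lower: the amounts were -0.70 for SLC38A2, -0.64 for SLC1A5, -0.43 for SLC43A1, -0.43 for SLC3A2 and -0.40 for its partner in the leucine exchanger, SLC7A5.

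The genes whose profile over the 6 arrays was nearest to each sestrin were found by the Euclidean distance between profiles centred on their own means, as a description. For SESN2 these were TRIB3 (distance 0.10), ACSM3, an acyl-CoA synthetase (0.12), CARS1, the cysteinyl-tRNA synthetase (0.15), GPT2, the mitochondrial alanine aminotransferase (0.19), and the clock gene PER1 (0.22). All 5 fell, by 1.08 to 1.22. The profiles nearest to SESN1 were those of SRA1, SPAG7, the proteasome assembly factor POMP, HSPA14 and MPV17L2, at distances of 0.04 to 0.07 and with rises of 0.53 to 0.60. Nearest to SESN3 were PCNX1, ZSCAN29, RNF214, ZFP14 and MAMDC2, at 0.10 to 0.13, which fell by 0.59 to 0.70. Because the distance includes the group difference, these genes share its size and direction by construction.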

How the data were processed

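Transcripts were measured on 6 Affymetrix arrays, 3 of empty virus control and 3 of SOX9 knockdown cells, grouped by their titles. The deposited table holds log2 signals of 49372 probe sets, made by the authors with RMA and the affy package per the submitters' processing notes (no source used here names versions, array design or build); RMA equalizes arrays and compresses low signals. The number of arrays limits the precision. The deposited series matrix held the same log2 values (largest difference 0.0).

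From these values, 79 control sets were left out. The table gives 1 gene for 46240 of the others, named by Entrez number through RefSeq (GRCh38.p14) for 46035. The comparison used R 4.3.3 and limma 3.58.1 (lmFit and eBayes, two-sided, without covariates or filter), with Benjamini-Hochberg adjustment over 49293 probe sets or, for pathway genes, 18574 genes, and a threshold of 0.05. The fit was tested on simulated data. Tables and plots used Python 3.11.15, pandas 2.3.3 and matplotlib 3.10.9. Members, lists and tests were chosen with earlier results of these data known. Named were all members, SOX9, up to 4 called genes of each list by size of change (where under 2 passed, the 2 of lowest p) and the 5 nearest profiles of each sestrin; other genes named with values were chosen after these were seen. PRKAB2, EIF4EBP3 and PDCD4 were not analysed here, and 1 listed transcription factor is not reported here by name. The planned comparison of sestrin proteins was not run.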

Additional observations from a re-analysis of the deposited data

How the results depend on the processing

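Limits: 3 arrays a group, clone and hairpin confounded, and 11 of 34 member sets under a signal of 5. SESN2 kept its direction and call under all 15 alternatives. The count of member probe sets called higher, 2, was 4 with array weights (NPRL3 and a TSC1 set were added), 1 with the replicate block and 0 with the spike-in covariate, and 1 to 6 when 1 array was left out, with 6 without control 3. The count called lower, 4, was 2 with 1 probe set a gene and 2 with a mean of at least 5, by their construction, and 3 to 4 when 1 array was left out. Other pathway genes called higher, 6, numbered 12 with array weights, 0 with the spike-in covariate and 1 to 12 when 1 array was left out (1 without control 1, 2 without control 2, 12 without control 3, 2 without knockdown 1, 3 without knockdown 2 or 3). Those called lower, 23, numbered 15 with the replicate block and 14 with the spike-in covariate.

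With the spike-in covariate the differences of SESN1 (0.49, adjusted p = 0.103), SESN3 (-0.61, 0.141) and RPTOR (0.27, 0.356) no longer passed by limma, while SESN2 read -1.22 (0.00894). RPTOR (0.40) also lost its call with the block, and NPRL3 (0.43) gained one with array weights. When 1 array was left out, SESN3 ranged from -0.71 to -0.52, DEPDC5 from 0.23 to 0.47, NPRL3 from 0.28 to 0.55, RRAGC from 0.20 to 0.49 and RPTOR from 0.34 to 0.48. The cause was not tested. Among the members and the called genes of the lists, no called direction reversed under these alternatives. Same-numbered arrays did not deviate together: correlations of their deviations from the group means were -0.24, -0.40 and -0.42. Between arrays of different number they reached 0.53, for control 2 with knockdown 3. What arrays of 1 number share is not labelled, and shared handling of arrays across the groups was not tested. Over all genes the 1563 higher and 1551 lower calls became 1071 and 1110 with the replicate block and 290 and 477 with the spike-in covariate.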
